A study of Mus musculus with 6 samples.

Results

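The 10 genes described here are transcripts that tell classes of cortical interneuron apart, and they were taken by name: Sst, Npy, Vip, Cck, Tac1 and Penk, which encode neuropeptide precursors, Calb1 and Calb2, which encode calcium-binding proteins, Reln, which encodes a secreted matrix protein, and Nos1, which encodes an enzyme. They are 10 of the 55471 gene identifiers in the count table, and all 10 symbols matched 1 identifier each. RNA sequencing was done on neurons cultured from the cortex of CD1 mouse embryos at day E14.5 to E15, kept with 2 uM of the antimitotic drug cytosine arabinoside. Lentivirus was added on day 6 and RNA was taken on day 11. The shOpa1 libraries came from cultures given a short hairpin RNA against Opa1, labelled Opa1 knock-down, and the shControl libraries from cultures given a control hairpin, labelled WT. Each group held 3 libraries, called biological replicates, and how many hairpins were used is not given in the sources used here. The whole cultures were sequenced, so interneurons were measured together with every other cell in the dish.

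Cortical interneurons use GABA as transmitter and come from the ventral forebrain. Somatostatin and vasoactive intestinal peptide mark separate classes, while neuropeptide Y, cholecystokinin, tachykinins and enkephalins are released from subsets of them. Peptides are cut from larger precursors in dense-core vesicles and act on G-protein-coupled receptors. Calbindin and calretinin buffer calcium through EF-hand domains. Reelin guides the layering of the cortex, and it is made first by Cajal-Retzius cells and later by interneurons. Neuronal nitric oxide synthase makes a gas that raises cyclic GMP in neighbouring cells. Several of these genes are also active outside interneurons, Cck and Calb1 among them.

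The knockdown was present in every shOpa1 library. Opa1, which encodes a GTPase that fuses mitochondrial inner membranes, stood at 10.2, 8.64 and 8.50 CPM (counts scaled to a common library size) in shOpa1 against 201.8, 204.6 and 201.9 CPM in shControl. Library totals lay between 29476268 and 32961580 counts in shOpa1 and between 24676709 and 28253400 in shControl. The libraries numbered 3 of both groups stood apart from the other 4 along a principal component with 26.4% of the variance. Libraries that share a number deviated together from their group means, with correlations of 0.519, 0.537 and 0.666, so they were treated as pairs 1, 2 and 3. Libraries of unlike number correlated at -0.471 to 0.111. Values of the pairs are given below as log2 differences, shOpa1 minus shControl.

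Lower levels outnumbered higher ones among the markers. Sst, Reln and Nos1 were about 2-fold lower in shOpa1 and Calb1 was 1.84-fold lower, while Tac1 was 1.62-fold higher. Npy and Calb2 were lower within every pair and did not pass the test unless the pairs were part of the model or libraries were left out. Cck and Penk passed neither test, and Vip was removed beforehand by the low-count filter. In the edgeR quasi-likelihood test with Benjamini-Hochberg adjustment at 0.05, 5 of the 9 tested genes were called, 1 higher and 4 lower. Of all 16562 tested genes, 38.9% were called, 18.9% higher and 20.0% lower. With the pairs as a block in the model, 7 of the 9 were called, 1 higher and 6 lower, against 59.5% of all genes, 28.8% higher and 30.7% lower. The median log2 fold change of the 9 was -0.79, against -0.01 over all tested genes, and the median size of change was 0.79 against 0.33. In whole cultures, fewer cells of a class and less RNA per cell cannot be told apart.

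**Figure D1:**
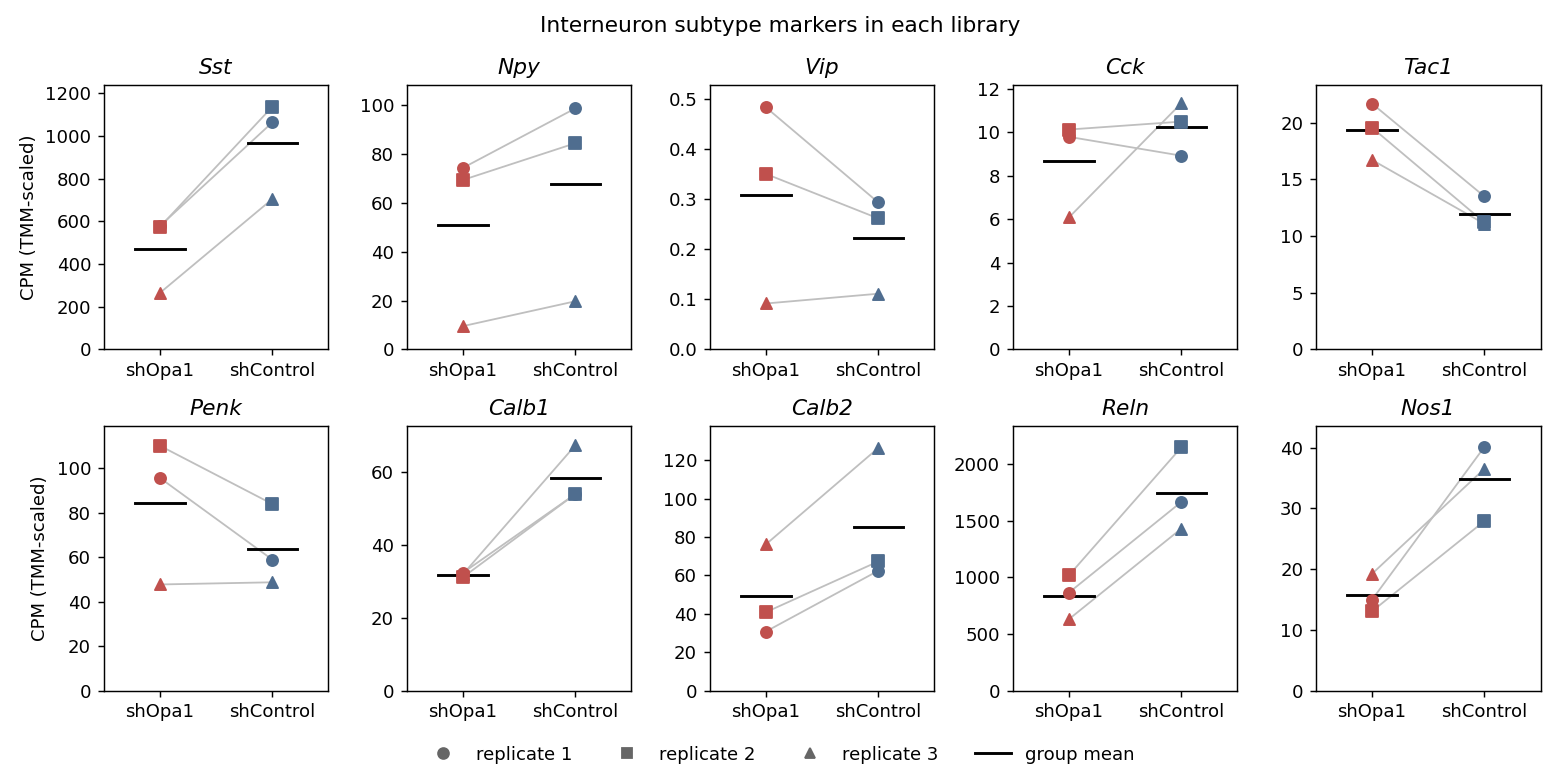
CPM of the 10 markers in each library (linear axes from 0), shOpa1 on the left of each panel and shControl on the right, with a bar at each group mean and points joined where libraries share a replicate number. The shOpa1 points of Sst, Calb1, Reln and Nos1 lie below all shControl points and those of Tac1 lie above them, whereas for Npy and Calb2 the libraries numbered 3 are far from the others in both groups.

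Per unit of gene length, Sst was by far the most abundant marker and Vip the least abundant. Sst averaged 2565 ± 961 TPM (counts scaled to gene length and library size) in shOpa1 and 4695 ± 1013 TPM in shControl (SD, n = 3 each), which placed it at rank 24 of all genes in shOpa1 and at rank 11 in shControl. The next group in shOpa1 was Npy at 354 ± 249.5 TPM, Penk at 203 ± 76.0, Reln at 138 ± 30.1 and Calb2 at 111 ± 55.0. Neighbours in that order overlapped between libraries, so the order within the group is not resolved. In shControl the same 4 genes followed Sst, as Npy at 416 ± 257 TPM, Reln at 258 ± 45.8, Calb2 at 173 ± 77.0 and Penk at 137 ± 34.4, again with overlapping neighbours. Below them came Cck at 26.1 ± 6.53 TPM, Calb1 at 25.8 ± 1.00 and Tac1 at 22.3 ± 2.92 in shOpa1, which overlapped one another. In shControl, Calb1 stood at 42.5 ± 6.76 TPM, Cck at 27.6 ± 3.65 and Tac1 at 12.3 ± 1.48, and these 3 did not overlap. Nos1 averaged 5.56 ± 1.20 TPM in shOpa1 and 11.0 ± 2.21 TPM in shControl, where its range met that of Tac1. Vip averaged 0.356 ± 0.232 TPM in shOpa1 and 0.228 ± 0.0975 TPM in shControl.

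**Figure D2:**
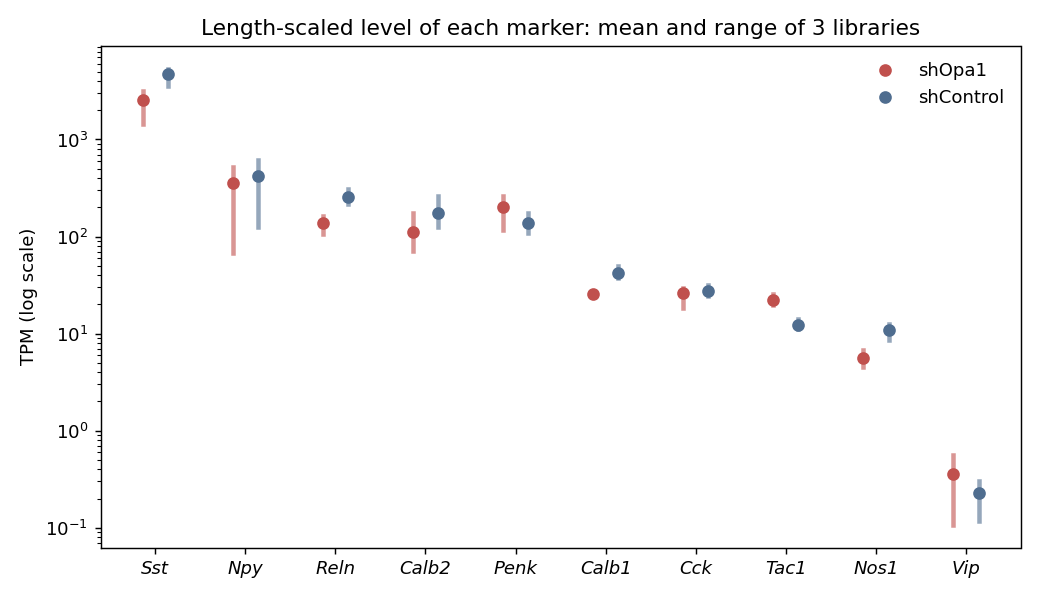
TPM (log axis) of each marker, with a point at the mean and a line over the range of the 3 libraries, shOpa1 left of shControl, and genes ordered by their shControl level. Sst stands above all other markers in both groups, at 1458 TPM or more in every library, and Vip lies below 1 TPM in every library.

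Promoter sequences are shown for Sst and Tac1, peptide genes called in opposite directions, because both hold letters of the cyclic AMP response element (CRE), the site bound by CREB. The CRE of the Sst promoter is a textbook site of cyclic AMP regulation. Sequences are from RefSeq (GRCm38.p6), from 250 bases before to 50 after the start of the gene, written 5′ to 3′ on the gene's strand. The start is that of the RefSeq table, which lies inside the gene spans given below for Sst and Tac1, and far inside that of Nos1. Capitals mark the CRE half-site TGACG or its complement CGTCA, which join into a full CRE, TGACGTCA, in Sst.
Sst, chr16:23890795-23891094, minus strand: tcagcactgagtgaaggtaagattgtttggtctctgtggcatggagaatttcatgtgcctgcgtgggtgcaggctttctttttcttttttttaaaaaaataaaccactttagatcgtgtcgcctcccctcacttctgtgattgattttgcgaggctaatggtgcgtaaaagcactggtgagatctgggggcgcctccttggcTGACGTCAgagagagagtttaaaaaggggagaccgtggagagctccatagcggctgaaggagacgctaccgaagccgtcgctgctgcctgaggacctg
Tac1, chr6:7554811-7555110, plus strand: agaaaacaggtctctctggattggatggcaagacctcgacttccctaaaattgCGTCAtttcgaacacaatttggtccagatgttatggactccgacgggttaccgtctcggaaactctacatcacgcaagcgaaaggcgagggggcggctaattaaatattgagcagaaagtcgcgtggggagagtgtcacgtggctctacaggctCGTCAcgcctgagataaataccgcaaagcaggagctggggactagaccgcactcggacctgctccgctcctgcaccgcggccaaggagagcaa
The full CRE of Sst begins 48 bases before the start, and the 2 half-sites in it are its only ones. Tac1 has half-sites whose first bases lie 197 and 43 bases before the start, and no full CRE. Of 10 markers, 7 were matched in the promoter table, and half-sites were also found in Vip at 79 bases, in Cck at 47 and in Nos1 at 130, but not in the windows of Npy and Reln. Searched on both strands, the full CRE is present in 588 of 32851 promoters (1.79%) and the half-site in 6837 (20.8%). The E-box CANNTG was found in Sst, Cck, Tac1, Reln and Nos1 and in 72.3% of promoters, TATAAA in Vip and in 13.6%, and TGATGNAA, the composite element of ATF4 and C/EBP, in none of the 7 and in 3.97% of promoters. These are matches of letters, and no binding was measured.

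Sst fell to 577.6, 573.1 and 264.3 CPM in shOpa1, against 1063, 1136 and 703.9 CPM in shControl. Every shOpa1 library lay below every shControl library, and the library numbered 3 was the lowest of each group. Sst (ENSMUSG00000004366) spans 23889573 to 23890958 of chromosome 16 (minus strand, GRCm38, as for all positions of genes below). Its transcript encodes the precursor of somatostatin, a peptide that inhibits release of hormones and transmitters and marks interneurons that target dendrites. The means were 472 ± 179.6 CPM in shOpa1 and 967 ± 231 CPM in shControl (SD, n = 3 each), a log2 fold change of -1.04 with a standard error of 0.332 and a 95% interval of -1.83 to -0.24 (edgeR quasi-likelihood test, adjusted p = 0.0485). The 3 pair differences were -0.88, -0.99 and -1.41. The call sat at the edge of the threshold when the pairs were not modelled: it was lost on leaving out shOpa1 replicate 1 (adjusted p = 0.0674), shOpa1 replicate 2 (0.0765), shControl replicate 1 (0.116) or shControl replicate 2 (0.125), and with upper-quartile scaling (0.0539) or no low-count filter (0.213). With the pairs as a block the log2 fold change was -1.09 (edgeR, adjusted p = 0.00035).

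Npy, the precursor of neuropeptide Y, which dampens excitatory transmission, had 74.4, 69.4 and 9.54 CPM in shOpa1 and 98.8, 84.5 and 19.7 CPM in shControl. The libraries numbered 3 were far below the others in both groups, 7.54-fold below the mean of libraries 1 and 2 in shOpa1 and 4.64-fold in shControl. Within each pair the shOpa1 library was the lower one, by differences of -0.41, -0.28 and -1.01, yet the groups overlapped. On the log2 scale the difference was -0.40 (standard error 0.829), with a 95% interval of -2.40 to 1.59 (edgeR, adjusted p = 0.735). It turned to 0.09 on leaving out shOpa1 replicate 3 (edgeR, adjusted p = 0.930). With the pairs as a block it was -0.51 and was called (edgeR, adjusted p = 0.0231). Npy (ENSMUSG00000029819) spans 49822710 to 49829507 of chromosome 6 (plus strand).

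Vip, the precursor of vasoactive intestinal peptide, which marks interneurons that inhibit other interneurons, was near the limit of detection. It had 15, 12 and 3 counts in shOpa1 and 7, 7 and 3 counts in shControl, which sum to 30 and 17. These counts did not pass the low-count filter, and DESeq2, which keeps the gene, gave a log2 fold change of 0.49 (adjusted p = 0.727). A difference was not detectable at this depth. Vip (ENSMUSG00000019772) spans 5639218 to 5647617 of chromosome 10 (plus strand).

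Cck, the precursor of cholecystokinin, which marks basket cells and is also made by pyramidal cells, had 9.80, 10.1 and 6.08 CPM in shOpa1 and 8.93, 10.5 and 11.3 CPM in shControl. The groups overlapped, and only pair 3 differed by much, with pair differences of 0.13, -0.05 and -0.85. The fitted log2 fold change, -0.24 with an error of 0.207, had an interval of -0.73 to 0.24 (edgeR, adjusted p = 0.394), and it was 0.04 in pairs 1 and 2 alone (edgeR, adjusted p = 0.795). Cck (ENSMUSG00000032532) spans 121489824 to 121495694 of chromosome 9 (minus strand).

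Tac1 was the only marker called higher, and it encodes the precursor of substance P and neurokinin A. It had 21.7, 19.6 and 16.7 CPM in shOpa1 and 13.5, 11.2 and 11.1 CPM in shControl, with every shOpa1 library above every shControl library. The means were 19.3 ± 2.49 CPM in shOpa1 and 11.9 ± 1.36 CPM in shControl (SD, n = 3 each). A log2 fold change of 0.70 (standard error 0.131) was fitted, with an interval of 0.39 to 1.00 (edgeR quasi-likelihood test, adjusted p = 0.00544). The pair differences were 0.66, 0.78 and 0.57, and the call held in each of the 14 alternative analyses run. Tac1 (ENSMUSG00000061762) spans 7554879 to 7565834 of chromosome 6 (plus strand).

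Penk, the precursor of the enkephalins, opioid peptides, had 95.7, 110.1 and 47.7 CPM in shOpa1 and 58.9, 83.9 and 48.7 CPM in shControl. The shOpa1 library was higher in pairs 1 and 2 and level with its partner in pair 3, with differences of 0.69, 0.39 and -0.03. The model gave a log2 fold change of 0.40 (standard error 0.339) and an interval of -0.41 to 1.22 (edgeR, adjusted p = 0.392), and with the block it was 0.36 (adjusted p = 0.0759). Penk (ENSMUSG00000045573) spans 4133531 to 4138819 of chromosome 4 (minus strand) and shares 14.3% of its exon bases with A830012C17Rik, so some of its reads may be uncertain.

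Among the receptors of these peptides, 3 of 16 tested genes of 20 listed were called, 2 higher and 1 lower, with a median log2 fold change of -0.10, and with the block 2 were higher and 7 lower. The called share was smaller than the 38.9% of all tested genes, of which 18.9% were higher and 20.0% lower. With the block, 28.8% of all genes were higher and 30.7% lower. Npy2r, a receptor of neuropeptide Y, fell to 2.17 ± 0.147 CPM in shOpa1, against 6.14 ± 0.848 CPM in shControl (edgeR, log2 fold change -1.50, adjusted p = 0.000586). Tacr3, the receptor that prefers neurokinin B, rose to 25.2 ± 7.59 CPM in shOpa1, against 8.63 ± 0.496 CPM in shControl (1.54, adjusted p = 0.00224). Vipr1, a receptor of vasoactive intestinal peptide, stood at 3.19 ± 0.331 CPM in shOpa1 and 2.17 ± 0.33 CPM in shControl (0.56, adjusted p = 0.0489), a call that was lost on leaving out any single library (adjusted p between 0.0633 and 0.122) or the low-count filter (0.0941). The list had 1 higher gene on leaving out any single library other than shOpa1 replicate 3, and 2 lower genes without that one. Vipr2 did not pass without the block (-0.50, adjusted p = 0.097) and did with it (0.0415).

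The machinery that processes and stores peptides had 5 of 20 genes called, 1 higher and 4 lower, with a median of -0.13, and 3 higher and 9 lower with the block. The called share was smaller than the 38.9% of all tested genes, of which 18.9% were higher and 20.0% lower. With the block, 28.8% of all genes were higher and 30.7% lower. Carboxypeptidases that trim the ends of peptide intermediates were lower: Cpe stood at 769 ± 42.2 CPM in shOpa1 and 1071 ± 80.2 CPM in shControl (edgeR, log2 fold change -0.48, adjusted p = 0.00259) and Cpd had a log2 fold change of -0.66 (adjusted p = 0.00209). Qpct, which makes N-terminal pyroglutamate, was also lower (-0.33, adjusted p = 0.0135, and 0.0527 without shControl replicate 2). The granin Scg2 rose to 924 ± 154 CPM in shOpa1, against 570.1 ± 52.6 CPM in shControl (0.70, adjusted p = 0.00576), and 4 genes of the list were higher without shOpa1 replicate 3.

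Other peptide precursors gave few calls. Of 19 listed, 16 were tested, with a median of 0.25, and 2 were called, both higher. That is a smaller share than the 18.9% of all genes called higher, and 20.0% of all genes were called lower. With the block 5 were higher and 5 lower, against 28.8% and 30.7% of all tested genes. Crh, the precursor of corticotropin-releasing hormone, had 35.7 ± 15.6 CPM in shOpa1 and 9.22 ± 4.00 CPM in shControl (edgeR, log2 fold change 1.96, adjusted p = 0.0167, 0.0548 without shOpa1 replicate 2 and 0.102 with no low-count filter). Vgf, a granin-like precursor, had 513 ± 87.6 CPM in shOpa1 and 281 ± 11.47 CPM in shControl (0.87, adjusted p = 0.00168). Cartpt had a log2 fold change of 0.84 (adjusted p = 0.0566, and 0.0112 with the block) and Tac2 one of -1.43 (adjusted p = 0.0659, and 0.0319 with the block). Without shControl replicate 3 the list had 4 genes higher and 1 lower, and without shOpa1 replicate 2 it had 1 higher.

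Calb1 was lower in shOpa1 with the smallest standard error of the tested markers. It had 32.4, 31.1 and 31.9 CPM in shOpa1 and 54.0, 54.0 and 67.3 CPM in shControl, and the groups did not overlap. The means were 31.8 ± 0.624 CPM in shOpa1 and 58.4 ± 7.73 CPM in shControl (SD, n = 3 each). On the log2 scale the difference was -0.88 (standard error 0.0990), with a 95% interval of -1.11 to -0.64 (edgeR quasi-likelihood test, adjusted p = 0.000657), and the pair differences were -0.73, -0.78 and -1.06. Calb1 (ENSMUSG00000028222) encodes calbindin and spans 15881264 to 15908064 of chromosome 4 (plus strand). Its call held in every alternative analysis run.

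Calb2, which encodes calretinin, a calcium buffer of interneurons that often also make vasoactive intestinal peptide, had 30.8, 40.9 and 76.2 CPM in shOpa1 and 62.5, 67.3 and 126.4 CPM in shControl. Here the libraries numbered 3 were the highest, 2.13-fold above the mean of libraries 1 and 2 in shOpa1 and 1.95-fold in shControl. The shOpa1 library was lower in every pair, by differences of -1.01, -0.71 and -0.73, and of the shOpa1 libraries only that numbered 3 lay above any shControl library. The fitted log2 fold change, -0.79 with an error of 0.410, had an interval of -1.78 to 0.19 (edgeR, adjusted p = 0.175). With the pairs as a block it was -0.82 (edgeR, adjusted p = 1.44e-06), in pairs 1 and 2 alone -0.85 (0.0024), and without shOpa1 replicate 3 it was -1.26 (0.0478). Calb2 (ENSMUSG00000003657) spans 110137502 to 110168210 of chromosome 8 (minus strand).

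Other EF-hand proteins had 5 of 21 tested genes called, 1 higher and 4 lower, with a median of -0.18, and 3 higher and 13 lower with the block. The called share was smaller than the 38.9% of all tested genes, of which 18.9% were higher and 20.0% lower. With the block, 28.8% of all genes were higher and 30.7% lower. Hpcal1, a neuronal calcium sensor, had 58.3 ± 0.77 CPM in shOpa1 and 84.3 ± 5.64 CPM in shControl (edgeR, log2 fold change -0.53, adjusted p = 0.00107). Kcnip2, which joins A-type potassium channels, was lower (-0.84, adjusted p = 0.00694), as was Cabp7 (-1.38, adjusted p = 0.0168), whose call was lost without replicate 2 of either group (adjusted p up to 0.0654). Cabp1, which binds calcium channels, was higher (0.62, adjusted p = 0.00328). The lower genes numbered 9 without shOpa1 replicate 3 and 2 without replicate 2 of either group, and 2 genes were higher without shControl replicate 3. Pvalb, the parvalbumin gene of fast-spiking interneurons, was added after its values were seen: it averaged 0.548 ± 0.0857 CPM in shOpa1 and 0.531 ± 0.575 CPM in shControl (0.04, adjusted p = 0.973).

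Reln was lower in each pair and about 2-fold lower overall. It had 865, 1018 and 631 CPM in shOpa1 and 1666, 2148 and 1431 CPM in shControl, with no overlap between groups. The means were 838 ± 195 CPM in shOpa1 and 1748 ± 366 CPM in shControl (SD, n = 3 each). A log2 fold change of -1.06 (standard error 0.215) was fitted, with an interval of -1.58 to -0.54 (edgeR quasi-likelihood test, adjusted p = 0.00938), and the pair differences were -0.94, -1.08 and -1.18. The call was lost with no low-count filter (adjusted p = 0.0649). Reln (ENSMUSG00000042453) spans 21884454 to 22344702 of chromosome 5 (minus strand), and 1.04% of its exon bases are shared with Gm10475.

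Genes of the reelin pathway moved both ways, with 7 of 15 higher, 4 lower and 4 not called and a median of 0.08. Of all tested genes, 18.9% were higher and 20.0% lower. Lrp8, a receptor of reelin, fell to 113 ± 11.3 CPM in shOpa1, against 198 ± 6.56 CPM in shControl (edgeR, log2 fold change -0.81, adjusted p = 0.00041). Src, a kinase that phosphorylates the adaptor Dab1, was lower (-0.53, adjusted p = 0.000507), as was the adaptor Apbb1 (-0.35, adjusted p = 0.00161). Rnf7, a subunit of the ubiquitin ligase that removes phosphorylated Dab1, rose to 63.5 ± 2.24 CPM in shOpa1, against 39.7 ± 3.48 CPM in shControl (0.68, adjusted p = 0.000811). The higher genes numbered 4 on leaving out shOpa1 replicate 1, shOpa1 replicate 2 or shControl replicate 2.

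Nos1 had the largest fold change among the markers. It had 15.0, 13.1 and 19.2 CPM in shOpa1 and 40.1, 27.9 and 36.5 CPM in shControl, with every shOpa1 library below every shControl library. The means were 15.7 ± 3.16 CPM in shOpa1 and 34.9 ± 6.27 CPM in shControl (SD, n = 3 each), a 2.21-fold difference. The model gave a log2 fold change of -1.15 (standard error 0.183) and an interval of -1.58 to -0.71 (edgeR quasi-likelihood test, adjusted p = 0.0029). The pair differences were -1.39, -1.07 and -0.91, and the call held in every alternative analysis run. Nos1 (ENSMUSG00000029361) spans 117781032 to 117958840 of chromosome 5 (plus strand), and 2.40% of its exon bases are shared with Gm26995.

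Further genes of nitric oxide and cyclic GMP signalling were more often lower than higher. Of 20 tested genes of 21 listed, 2 were higher, 8 lower and 10 not called, with a median of -0.39. With the block, 3 were higher and 9 lower. Over all tested genes, 18.9% were higher and 20.0% lower, and 28.8% and 30.7% with the block. Ddah1 and Ddah2, which degrade methylated arginines that inhibit nitric oxide synthases, were 77.6 ± 13.3 and 24.6 ± 3.56 CPM in shOpa1, against 289.8 ± 12.2 and 69.3 ± 2.49 CPM in shControl (edgeR, log2 fold changes -1.90 and -1.49, adjusted p = 8.51e-05 and 0.000121). Gucy1b1, a subunit of the cyclase that senses nitric oxide, was lower (-1.25, adjusted p = 0.000706). Gch1, the first enzyme in making the cofactor tetrahydrobiopterin, rose to 16.2 ± 2.06 CPM in shOpa1, against 7.28 ± 0.283 CPM in shControl (1.15, adjusted p = 0.000502). The higher genes numbered 1 without shOpa1 replicate 1 or shOpa1 replicate 2.

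**Figure D3:**
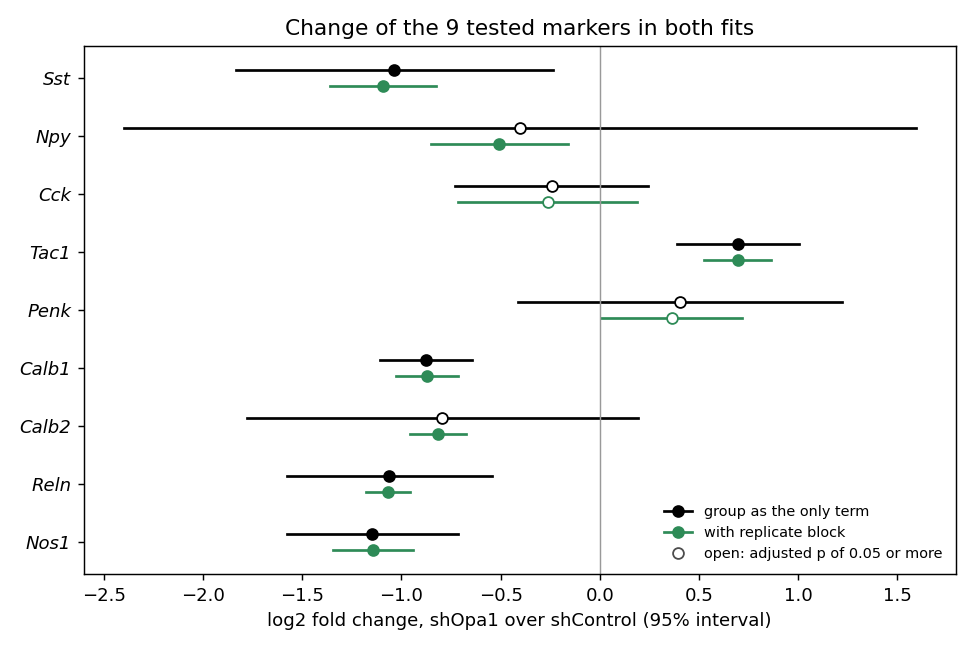
Log2 fold change, shOpa1 over shControl, of the 9 tested markers with 95% intervals, from edgeR without and with the replicate pairs as a block. The intervals of Npy and Calb2 span 0 without the block and lie below 0 with it, that of Tac1 lies above 0 in both, and that of Cck spans 0 in both. Open points (Cck and Penk in both fits, Npy and Calb2 without the block) have an adjusted p of 0.05 or more.

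Groups of libraries that did not overlap were found for 5 of the 9 tested markers, 1 above and 4 below, and for 51.8% of all tested genes. The libraries numbered 3 were lowest in both groups for Sst, Npy, Tac1, Penk and Reln among the tested markers, and highest in both groups for Calb2. The authors' deposited table, which has fold changes of the same 6 libraries, gives 7 of the 10 markers an adjusted p under 0.05, 1 higher and 6 lower. The share of all genes under that threshold in the authors' table was not computed. The fit with the pairs as a block called the same 7, and it called 59.5% of all tested genes. DESeq2 without a block called 5 markers, and 6434 genes of the 32943 with at least 1 count. Whether the authors' model held a block was not established here. In the authors' deposited table the log2 fold change is -0.56 for Npy (adjusted p = 0.0175) and -0.80 for Calb2 (3.92e-15), while Vip has 0.38 (0.777), Cck -0.26 (0.299) and Penk 0.35 (0.251).

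Transcripts of interneuron identity were also more often lower than higher. Over all tested genes, 18.9% were higher and 20.0% lower, and 28.8% and 30.7% with the block. Of 19 genes of GABAergic identity, 1 was higher, 10 were lower and 8 were not called, with a median of -0.55, and 16 were lower with the block. Their summed level was between 1577 and 1732 TPM in shOpa1 and between 1919 and 1931 TPM in shControl, so the groups did not overlap. Sox6, a transcription factor of interneurons from the medial ganglionic eminence, stood at 26.2 ± 2.12 CPM in shOpa1 and 70.8 ± 4.55 CPM in shControl (edgeR, log2 fold change -1.43, adjusted p = 6.6e-05). Adarb2, a marker of interneurons from the caudal ganglionic eminence, was lower (-0.78, adjusted p = 0.000534), as was Dlx5 (-0.70, adjusted p = 0.00103). The enzymes that make GABA, both chosen after their values were seen, differed in direction: Gad1 had 794 ± 84.6 CPM in shOpa1 and 892 ± 28.98 CPM in shControl (-0.17, adjusted p = 0.161, and 0.00925 with the block), and Gad2 rose to 423 ± 11.7 CPM in shOpa1, against 335 ± 25.3 CPM in shControl (0.34, adjusted p = 0.0078).

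Markers of other cell types moved with the interneuron markers, and their part in the results was not tested. Over all tested genes, 18.9% were higher and 20.0% lower, and 28.8% and 30.7% with the block. Cajal-Retzius cells make both Reln and Calb2, and of 11 further genes of these cells 8 were lower and 3 not called, with a median of -0.82 and summed levels of 136 to 166 TPM in shOpa1 and 212 to 249.8 TPM in shControl. Among them were the transcription factors Trp73 (log2 fold change -1.42, edgeR adjusted p = 0.0141, and 0.0883 with no low-count filter) and Nhlh2 (-1.12, 0.00739). The lower genes numbered 5 without shOpa1 replicate 1 or shOpa1 replicate 2 and 4 without shControl replicate 2. The summed level of 7 markers of Cajal-Retzius cells was lowest in library 3 of each group, at 54.4 TPM in shOpa1 and 97.4 TPM in shControl. Reln was also lowest in these libraries, whereas Calb2 was highest there. Excitatory cortical neurons had 7 of 14 genes lower with a median of -0.52, and 11 lower and 1 higher with the block, at 442 to 477 TPM in shOpa1 and 626 to 689 TPM in shControl, with 4 lower without shControl replicate 1 or shControl replicate 2. Of 10 genes of all neurons 6 were lower and 2 higher with a median of -0.53, at 4261 to 5016 TPM in shOpa1 and 6019 to 6819 TPM in shControl. In these 3 lists the summed levels were lower in every shOpa1 library than in any shControl library, and such sums are carried by their most abundant genes.

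Transcripts of glial cells had smaller sums than those of neurons. The share of all tested genes called lower was 20.0%, and 30.7% with the block. Astrocyte genes summed to between 55.9 and 102 TPM in shOpa1 and between 88.7 and 174 TPM in shControl, with 3 of 9 tested genes lower, 1 higher and a median of -1.26, and 7 lower with the block. The higher gene, Gfap, had a log2 fold change of 0.82 (edgeR, adjusted p = 0.0398), which did not pass on leaving out any 1 library other than shOpa1 replicate 1 (adjusted p up to 0.116). It also did not pass with DESeq2, limma-voom, no low-count filter or pairs 1 and 2 alone. Oligodendrocyte-lineage genes summed to between 34.7 and 49.7 TPM in shOpa1 and between 45.4 and 74.2 TPM in shControl, with 2 of 7 lower and a median of -0.53, and 1 lower without shOpa1 replicate 1 or shOpa1 replicate 2. Of 8 microglial genes, Aif1 alone was tested and was lower, and the list summed to between 7.65 and 11.0 TPM in shOpa1 and between 12.1 and 18.6 TPM in shControl. No gene of these lists was at 0 in all 6 libraries.

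CREB is one of the factors that turn on genes in active neurons, through sites like the CRE of Sst. Of 21 such genes and their regulators, 6 were higher, 0 lower and 15 not called, with a median log2 fold change of 0.17, and 7 were higher and 2 lower with the block. Over all tested genes, 18.9% were higher and 20.0% lower, and 28.8% and 30.7% with the block. Fosb, an activity-induced transcription factor, had 18.2 ± 7.38 CPM in shOpa1 and 3.72 ± 1.27 CPM in shControl (edgeR, log2 fold change 2.29, adjusted p = 0.00487), and Prkacb, a catalytic subunit of protein kinase A, was higher (0.29, adjusted p = 0.0108). Nptx2 (1.32, adjusted p = 0.0293) and Nr4a1 (1.24, adjusted p = 0.027) passed by less, with adjusted p up to 0.0863 and 0.0847 on leaving out 1 library and 0.165 and 0.142 with no low-count filter, and Nr4a1 did not pass with the block (0.0782). The higher genes numbered 2 on leaving out replicate 1 or 2 of either group and with no low-count filter. Sst was lower in the same libraries, and whether its level is linked to CREB was not tested.

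**Figure D4:**
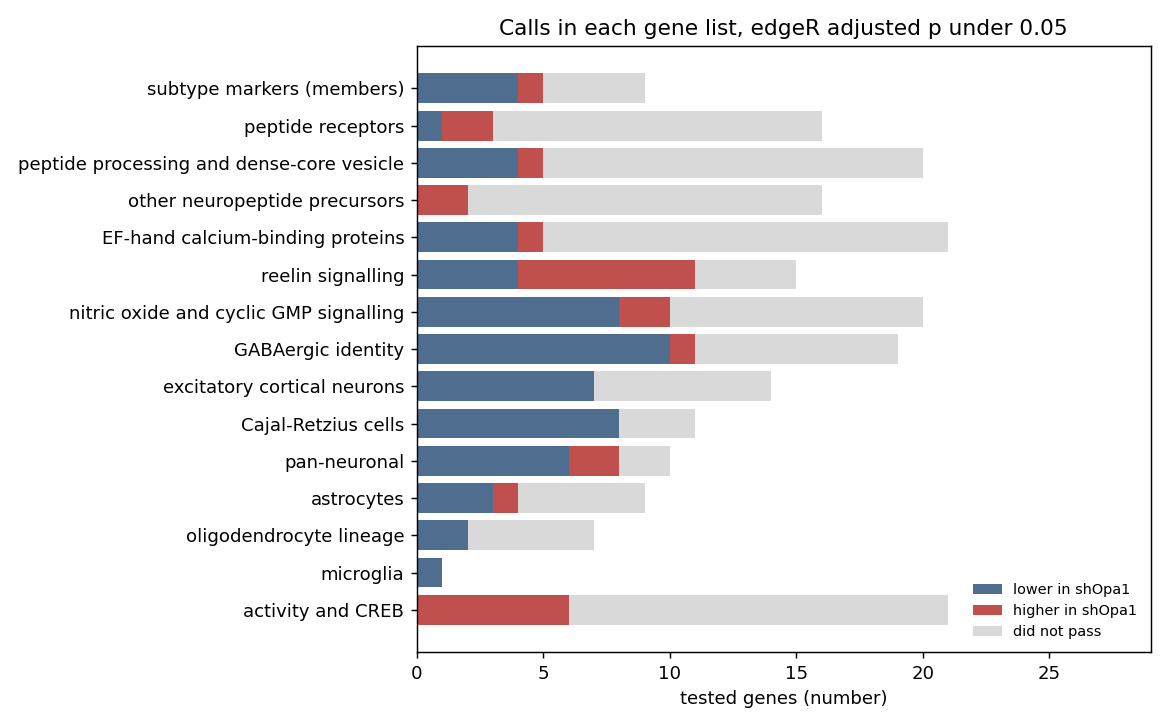
Number of tested genes (horizontal axis) called lower, called higher and not called in shOpa1, as stacked bars, for the markers and each list of related genes (edgeR, adjusted p under 0.05). Cajal-Retzius, excitatory and GABAergic lists have more lower than higher genes, whereas reelin signalling has 7 higher and 4 lower and the activity list has 6 higher and 0 lower.

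The genes whose level followed each marker most closely over the 6 libraries were found by Pearson correlation of log2 CPM, which mixes the difference between groups with that of the libraries numbered 3. For Sst these were Arntl (r = 0.999) and H2-T10 (0.997), for Npy Nmbr (0.997) and Gorasp1 (0.995), and for Cck Foxo4 (0.968) and Ubxn2a (0.938). Tac1 was most like Sec24c and Trak2 (0.997 each), and Penk like Fahd2a (0.989) and Txndc11 (0.987). Calb1 was most like Cttnbp2nl and Ttc3 (0.998 each), Calb2 like Rab33a (0.998) and Efnb1 (0.996), Reln like Klc4 (0.999) and Arsa (0.998), and Nos1 like Osbp2 (0.999) and Cygb (0.996). With 16562 genes to choose from and 6 libraries, high values are common, and they are given as a description.

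The 3' untranslated regions of the markers were searched for GAAACTA, a 7-base sequence picked earlier from these same fold changes because genes that carry it were lower in shOpa1. None of the 10 markers carries it, while 1334 of 13850 tested genes with such a region do (9.63%). The carriers had a median log2 fold change of -0.42, against -0.01 over all 13850. The 4 markers called lower are thus not carriers. Among the related genes above, Lrp8, Sox6, Adarb2 and Cpd are carriers, and these were named for their small p. Carriers of the peptide-processing and reelin lists that were not called include Pcsk2 (edgeR, adjusted p = 0.0856), Pcsk5 (0.525), Cadps2 (0.337) and Adamts3 (0.177).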

How the data were processed

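RNA from 6 libraries was analysed, 3 shOpa1 and 3 shControl, grouped by the sample labels. The deposited counts are raw reads per gene. Per the file headers, the authors counted read pairs over Ensembl release 99 genes of GRCm38 using featureCounts 1.6.0. Its command line sets neither strand nor handling of reads with several matches, so reads of overlapping genes may be uncertain. HISAT2, DESeq2 and mm10 are named without versions in the submitters' processing notes. The authors also deposited a comparison table with log2 fold changes and their errors, a score that is the fold change over its error, p-values, and a size-factor-normalised signal per library. Replicates were not pooled.

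The count table was tested with edgeR 4.0.16 (R 4.3.3): filterByExpr's filter on low counts, TMM scaling and a robust quasi-likelihood test of shOpa1 against shControl over all 16562 genes that passed, with Benjamini-Hochberg adjustment at 0.05. Standard errors are the log2 fold change over the square root of F, with 95% intervals from the t quantile. CPM uses TMM-scaled library sizes of tested genes, TPM the gene lengths in the deposited table, and pair differences log2(CPM + 0.5). TPM was not TMM-scaled. The TMM factors were 1.04 to 1.05 in shOpa1 and 0.952 to 0.968 in shControl, so the size of a group difference is not the same in TPM and CPM. Same-numbered libraries correlated at 0.519, 0.537 and 0.666 in their deviations from group means, above 0.1 for every pair, so the replicate number was also fitted as a block. Libraries of unlike number correlated at -0.471 to 0.111, and shOpa1 2 with shControl 1 (0.111) was also above 0.1. The choice of the block thus rests partly on these same data. Alternatives were DESeq2 1.42.0, limma-voom 3.58.1, other scalings, no filter, replicate 3 as a second batch, pairs 1 and 2 alone, and leaving out each library. The fits were also run on simulated counts with known changes. These held no replicate effect, so they cannot show how a fit without the block handles the pairs. Libraries of 1 group differed beyond sampling noise (chi-square per degree of freedom 6.11 to 30.8), so none was counted as the same library deposited again, while shared cultures cannot be told from the counts. The labels do not say whether cultures came from separate animals, so a p-value reflects only how these libraries spread. Library totals were 24676709 to 32961580 counts, and the spread between libraries of a group also limited the precision.

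The markers and the 14 lists of related genes were chosen with earlier results of these data known. Named beside the markers and Opa1 are up to 4 genes of each list with the smallest p, where they add to the text, and for each marker the 2 most alike genes with at least 50 counts per library on average, predicted genes left out. A gene that this rule would name is not reported here. Symbols came from a reference table that matched 55144 of 55471 identifiers. 3' untranslated regions are the longest per gene in GENCODE M21 (GRCm38) of at least 50 bases. Python 3.11.15, numpy 2.4.6 and scipy 1.17.1 were used.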

Additional observations from a re-analysis of the deposited data

How the results depend on the processing

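With the replicate pairs as a block, calls over all genes numbered 9851 (4770 higher, 5081 lower), against 6442 (3130 higher, 3312 lower) without it, and 7 of the markers were called in place of 5, Npy and Calb2 being the additional ones. Without the low-count filter 3 markers were called, 2 of them lower, since Sst and Reln no longer passed. Leaving out 1 library at a time gave 4 to 6 called markers, 3 to 5 of them lower and 1 higher, and 4589 to 6626 called genes, 2168 to 3168 higher and 2421 to 3458 lower. The log2 fold change of Cck turned to 0.041 in pairs 1 and 2 alone, and that of Npy to 0.091 without shOpa1 replicate 3, within -0.84 to 0.091 over single libraries left out. The cause was not tested. Of 126 alternative values of single markers, 110 kept direction and side of the threshold, 7 lost the call, 7 gained it and 2 turned. Of 392 alternative counts of the gene lists, 81 moved by more than 1.5 times. With upper-quartile scaling the median log2 fold change of all genes was 0.04, against -0.01 with TMM. The 3 libraries a group, with those numbered 3 apart from the rest, limit the precision, most of all for Npy without the block (standard error 0.829). Vip had too few counts for the low-count filter and was not called in the fits that kept it.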
